A study of Homo sapiens with 6 samples.

Results

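Histone genes were followed in HCT116 cells, an established human colon carcinoma line, of 2 genotypes, wild type and knockout for BRCA2, a gene of DNA repair by homologous recombination. A gene was taken where a probe set carried exactly 1 gene symbol and that symbol, in its older or current form, named a histone of the clusters HIST1 to HIST4, an H2AF gene, or H1F0, H1FX, H3F3A or H3F3B. This gave 49 probe sets for 49 genes out of 19458 probe sets, of which 42 were genes of the replication-dependent clusters and 7 were variant genes. The variant genes were H2AX, H2AJ, H2AZ1, H2AZ2, MACROH2A1, MACROH2A2 and H1-10 (older symbol H1FX). None of H1F0, H3F3A and H3F3B had a probe set of its own, so they are not among the genes analysed. Among the cluster genes, 37 lie on chromosome 6, 4 on chromosome 1 and 1 on chromosome 12. A RefSeq gene table holds 84 coding genes that meet the rule, 71 of the clusters and 13 variants, so the remaining genes were not analysed here. A further 5 probe sets that name a histone together with another gene were left out of all counts.

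Both groups were grown in the same serum-supplemented medium and received no treatment. The knockout cells had been made by targeting the 2 BRCA2 alleles in succession by homologous recombination, and each genotype is represented by 1 line, so that the missing BRCA2 and whatever else sets the lines apart cannot be told apart. Each genotype had 3 arrays. The labels name them technical replicates, while the extraction text speaks of 3 frozen samples of each genotype, and nothing says that these came from separate cultures. The p-values therefore measure the spread between these arrays, which may be technical.

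Histones package DNA into nucleosomes, in which pairs of H2A, H2B, H3 and H4 form the core and a linker histone of the H1 family binds where DNA enters and leaves. The cluster genes lack introns and are transcribed mainly in S phase, and most of their mRNAs end in a stem-loop made by the U7 snRNP instead of a poly(A) tail. The variant genes are spread over the genome, are transcribed outside S phase too, and mostly give polyadenylated mRNAs whose products replace the canonical histones at particular sites. Here the RNA was depleted of ribosomal RNA and copied along the whole transcript before hybridisation, per the labels' protocols. Values are on the log2 scale, on which a difference of 1 is a factor of 2, and all differences are given as knockout minus wild type. They were compared between genotypes on each probe set and never between probe sets. Several cluster genes are near-identical in their coding sequence, so RNA of one could hybridise to probes of another, and values of single cluster genes are uncertain for that reason.

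The arrays differed as a whole. Their median log2 value lay between 7.36 and 7.80, and wild-type array 1 and knockout array 2 were the highest of their groups. No probe set carried the symbol BRCA2 alone, so the genotype labels were not checked against the targeted gene. Of 10 epithelial markers listed for a colon line, 10 were measured, and all 10 were higher in the knockout. The median over the list was 9.91 to 10.18 in the wild-type arrays and 10.44 to 10.80 in the knockout arrays. Of all probe sets, 48.7% were lower. For 7 of the 10 markers every knockout array lay above every wild-type array (70.0%, against 12.0% of all probe sets). None of these 10 passed the adjusted threshold in limma, against 0.570% of all probe sets, and 2 had an unadjusted p under 0.05, against 12.2%. These were ELF3, an epithelial transcription factor, at 1.16 ± 0.24 (SE, adjusted p = 0.125, limma), and CDH1, which encodes E-cadherin, at 1.15 ± 0.24 (adjusted p = 0.127, limma). Another member, CDH17, gave 4.75, 4.96 and 3.62 in wild type and 5.68, 4.08 and 5.40 in the knockout, overlapping. Its values lay far under the list medians (0.61 ± 0.53, adjusted p = 0.686, limma), and it was named after they had been seen. Of 14 markers of blood, stromal, endothelial, neural, liver and lung cells, 13 were measured, with a median of 5.98 to 6.98 in wild type and 6.16 to 7.14 in the knockout, and 10 of the 13 were higher in the knockout, with a median difference of 0.46 and none called. The largest difference among them was 1.30 ± 0.62 for VWF (adjusted p = 0.464, limma). COL1A1, a fibroblast collagen gene that was named after its value had been seen, was the member with an unadjusted p under 0.05, at 1.10 ± 0.26 without overlap (adjusted p = 0.159, limma). The part of these shifts in the histone values was not tested.

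No histone gene passed the threshold. In limma with Benjamini-Hochberg adjustment over all 19458 probe sets, 0 of the 49 had an adjusted p under 0.05, against 0.570% of all probe sets, and the lowest adjusted p among them was 0.192. At an unadjusted p under 0.05 there was 1 of 49, against 12.2% of all probe sets. The histone genes were nearly evenly divided, with 24 higher and 25 lower in the knockout, where 48.7% of all probe sets were lower. Their median difference was -0.03, with quartiles of -0.29 and 0.17, and the median over all probe sets was 0.02.

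Few histone genes had a large difference. A difference of at least 0.5 in either direction was seen for 8 of 49 (16.3%), where 35.4% of all probe sets reached that size. The median standard error was 0.30 among the histone genes and 0.36 among all probe sets. The part of this in the smaller share was not tested. A difference of at least 1 was seen for 2, the linker genes H1-6 and H1-1, where 9.52% of all probe sets reached it. The precision does not show that the other genes were unchanged. The 95% interval of the difference lay between -1 and 1 for 24 of 49 genes (20 cluster and 4 variant genes), and for 24.6% of all probe sets. For 11 histone genes all knockout arrays lay on the same side of all wild-type arrays (22.4%, against 19.7% of all probe sets), 5 of them higher in the knockout (background 12.0%) and 6 lower (background 7.70%). That share is near the background and is no result about histone genes as a group. Without both arrays of highest median the count was 21, where 47.3% of all probe sets did not overlap. With quantile normalization it was 8, where 20.9% of all probe sets did not overlap.

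**Figure D1:**
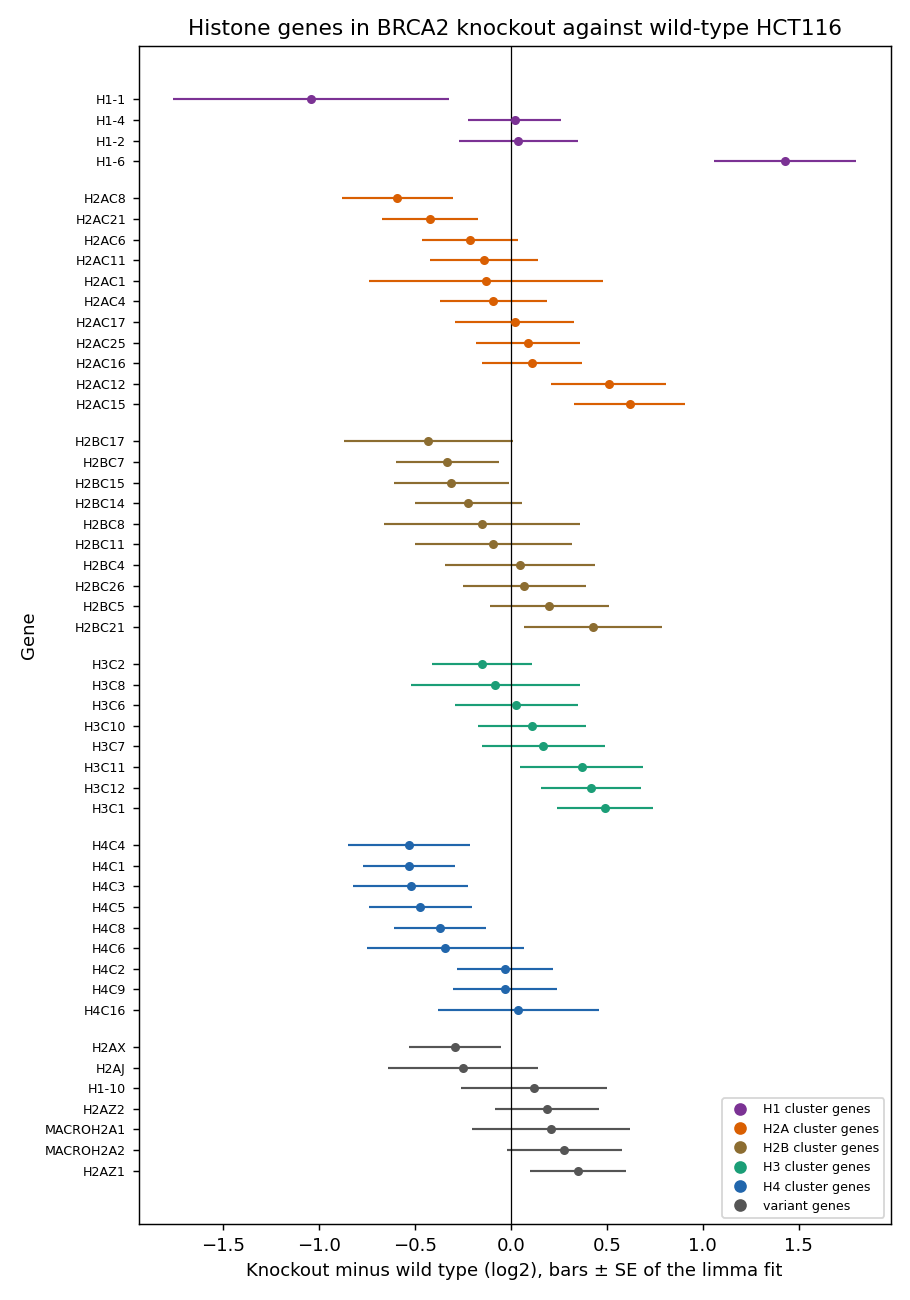
Difference between knockout and wild type (horizontal axis, log2) for each of the 49 histone genes (vertical axis, grouped by family and ordered by size), where points are limma estimates and bars are ± SE. The H4 cluster genes lie to the left of 0 except H4C16 at 0.04, the H3 cluster genes lie mostly to the right, and H1-1 and H1-6 stand apart at -1.04 and 1.43.

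The families of the clusters were not alike in direction. The 9 H4 genes had a median difference of -0.37 and the 8 H3 genes one of 0.14, while the median was 0.03 for H1 (4 genes), -0.09 for H2A (11 genes) and -0.12 for H2B (10 genes), beside 0.02 for all probe sets. These family contrasts were singled out after the values had been seen and were given no test.

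The H4 genes all encode the same core histone, and none of them was called. Of the 9, 8 were lower in the knockout (88.9%, against 48.7% of all probe sets) and 1 was higher, with differences from -0.53 to 0.04, and 4 of 9 had no overlap between the genotypes, all lower (background 7.70%). Their promoters are shown because every H4 promoter at hand holds the same short element. The sequences are the 150 bases before the RefSeq start site in GRCh38.p14, 5′ to 3′ on the strand of the gene, with the motifs searched in capitals: TATAAA (the TATA box), CCAAT (the CCAAT box), ATTTGCAT (the octamer, bound by POU2F1), AAACACA (the AC box of H1 promoters) and GGTCCG (the core of the H4 element, bound by HINFP), each on either strand, where overlapping matches run together.
H4C4 (chr6:26189113-26189262, minus strand): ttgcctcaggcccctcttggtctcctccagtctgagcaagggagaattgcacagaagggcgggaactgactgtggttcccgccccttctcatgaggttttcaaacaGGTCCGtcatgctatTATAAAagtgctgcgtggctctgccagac
H4C5 (chr6:26204460-26204609, plus strand): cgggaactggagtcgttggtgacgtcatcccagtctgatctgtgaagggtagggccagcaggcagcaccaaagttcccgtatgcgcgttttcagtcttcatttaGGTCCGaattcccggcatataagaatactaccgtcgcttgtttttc
H4C8 (chr6:26285535-26285684, minus strand): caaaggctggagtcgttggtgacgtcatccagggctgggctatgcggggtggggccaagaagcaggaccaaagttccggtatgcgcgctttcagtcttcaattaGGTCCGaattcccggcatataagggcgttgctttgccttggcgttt
H4C2 (chr6:26027284-26027433, minus strand): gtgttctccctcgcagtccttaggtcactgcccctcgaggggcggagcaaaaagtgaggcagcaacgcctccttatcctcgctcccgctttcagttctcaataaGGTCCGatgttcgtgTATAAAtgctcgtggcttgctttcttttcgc

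GGTCCG was found in the 250 bases before the start in 7 of 7 H4 promoters, at first bases -46 to -44 counted from the start site, and in 9.2% of 27305 RefSeq promoters of the same length. CCAAT was found in 2 of these 7, where the other cluster families held it in every promoter at hand. Since every H4 promoter at hand held the element, its presence could not be set against the size of the difference. H4C4, H4C5 and H4C8 carried it with differences of -0.53, -0.47 and -0.37, and H4C2 carried it at the same place as H4C5 and H4C8 with a difference of -0.03. A match is a description of the letters and not of binding. H4C1 and H4C3 had no entry in the promoter table and are named only.

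H4C1 gave 8.32, 8.22 and 8.30 in wild type (arrays 1, 2 and 3, an order kept throughout) and 7.89, 7.72 and 7.65 in the knockout. Every knockout array was below every wild-type array, and the arrays of each genotype lay close together (8.28 ± 0.05 and 7.75 ± 0.12, SD, n = 3 arrays each). The difference was -0.53 ± 0.24 (SE, 95% interval -1.08 to 0.03), with an adjusted p of 0.433 in limma, and it ranged from -0.59 to -0.47 over the alternatives run.

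H4C3 gave 12.18, 11.74 and 11.73 in wild type against 11.44, 11.67 and 10.97 in the knockout, with no overlap, though knockout array 2 lay just under the lower wild-type arrays. Its difference was -0.52 ± 0.30 (adjusted p = 0.533, limma). H4C5 gave 9.30, 8.70 and 9.22 in wild type, and the 3 knockout arrays lay together below them at 8.63, 8.59 and 8.58 (-0.47 ± 0.27, adjusted p = 0.535, limma). H4C8 gave 8.82, 8.65 and 8.91 in wild type against 8.27, 8.54 and 8.47 (-0.37 ± 0.24, adjusted p = 0.586, limma), again without overlap. H4C4 had a difference as large as that of H4C1, but its arrays overlapped: wild type gave 9.34, 9.07 and 9.18, knockout array 2 lay among them at 9.08, and the other knockout arrays gave 8.80 and 8.11.

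The other 4 H4 genes were H4C6 (-0.34 ± 0.41), H4C2 (-0.03 ± 0.25), H4C9 (-0.03 ± 0.27) and H4C16 (0.04 ± 0.42), each smaller than its standard error, and all 4 overlapped between genotypes. H4C16, the H4 gene of chromosome 12, gave 5.62, 4.35 and 5.21 in wild type and 4.59, 5.20 and 5.51 in the knockout. Its sign turned under 4 alternatives. Knockout array 3 held the lowest of the 6 values for 5 of the 9 H4 genes, against 20.6% of all probe sets. Without that array the H4 median was -0.29 and 8 of 9 were still lower. Without wild-type array 3 the median was -0.39 with 6 of 9 lower, and without both arrays of highest median it was -0.41 with 7 of 9 lower.

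The H3 genes leaned the other way, with 6 of 8 higher in the knockout and differences from -0.15 to 0.49. Lower genes made up 25.0%, against 48.7% of all probe sets. There were 2 genes without overlap, both higher (background 12.0%). Without both arrays of highest median, 4 of 8 were higher. The count was 5 of 8 with array weights, and also without knockout array 1 or knockout array 2. The H3 genes encode core histone H3, the partner of H4 in the tetramer at the centre of the nucleosome. Their promoters are shown beside those of H4 because the short elements differ: CCAAT was found in 6 of 6 H3 promoters at hand and TATAAA in 5 of 6, and GGTCCG in 1 of 6. In H3C6 the TATAAA match was only on the reverse strand, at -157. TATAAA was found in 11.3% and CCAAT in 32.9% of all promoters. H3C1 lay at the upper end of the family and H3C2 at the lower end, with the same arrangement of motifs.
H3C1 (chr6:26020301-26020450, plus strand): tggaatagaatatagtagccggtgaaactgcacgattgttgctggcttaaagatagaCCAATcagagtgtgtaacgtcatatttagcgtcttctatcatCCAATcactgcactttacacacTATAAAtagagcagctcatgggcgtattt
H3C2 (chr6:26032100-26032249, minus strand): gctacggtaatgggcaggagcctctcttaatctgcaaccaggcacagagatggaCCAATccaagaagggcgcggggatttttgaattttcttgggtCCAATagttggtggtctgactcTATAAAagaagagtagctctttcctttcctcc

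In both, a pair of CCAAT boxes precedes a TATA box close to the start. H3C1 gave 8.82, 8.70 and 9.06 in wild type and 9.22, 9.56 and 9.28 in the knockout. All knockout arrays were above all wild-type arrays, and the difference was 0.49 ± 0.25 (95% interval -0.11 to 1.09, adjusted p = 0.498, limma). H3C2 gave 11.04, 11.37 and 11.52 in wild type and 11.25, 11.22 and 11.03 in the knockout, overlapping, with a difference of -0.15 ± 0.26 (adjusted p = 0.846, limma).

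H3C12 was the other H3 gene without overlap. It gave 10.17, 10.32 and 10.73 in wild type against 10.81, 10.86 and 10.81 in the knockout, so that the knockout arrays lay together and just above wild-type array 3 (0.42 ± 0.26, adjusted p = 0.563, limma). H3C11 stood at 0.37 ± 0.32, and H3C7, H3C10, H3C6 and H3C8 lay between -0.08 and 0.17, each within its standard error. Of the H3 genes, 3 were among the dimmest 30% of probe sets. Without the dimmest probe sets the H3 median was 0.37 over 5 genes, 4 of them higher.

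On each array, the family medians of the H3 and H4 genes were set against each gene's mean over the 6 arrays. The H3 medians were -0.11, -0.26 and 0.05 on the wild-type arrays and 0.10, 0.24 and 0.11 on the knockout arrays. The H4 medians were 0.30, 0.04 and 0.23 on the wild-type arrays and -0.13, -0.07 and -0.27 on the knockout arrays. Neither family overlapped between genotypes in these medians. The H4 median minus the H3 median was 0.41, 0.30 and 0.18 in wild type and -0.23, -0.31 and -0.38 in the knockout, so that the order of the families within an array was opposite in the genotypes on all 6 arrays. This contrast within an array was picked for its size after the values had been seen, and genes of one family can share hybridising RNA, so it is a description and carries no p-value.

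**Figure D2:**
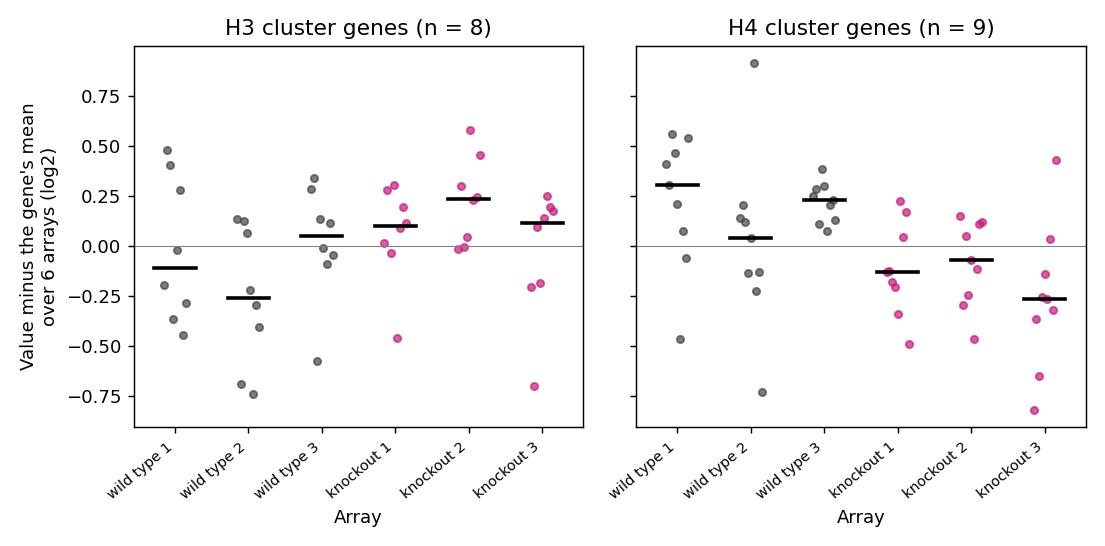
Value of each H3 (left) and H4 (right) cluster gene minus that gene's mean over 6 arrays (vertical axis, log2) on each array (horizontal axis), where points are genes and bars are the median of the family. The H4 medians are 0.04 to 0.30 on the wild-type arrays and -0.27 to -0.07 on the knockout arrays, and single genes of both families overlap widely.

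The H1 family encodes linker histones, and it held both the largest positive and the largest negative difference of all 49 genes. H1-6, the testis linker histone also called H1t, was the histone gene with an unadjusted p under 0.05. It gave 4.84, 4.86 and 5.68 in wild type against 7.07, 6.39 and 6.20 in the knockout. Every knockout array lay above every wild-type array, and the difference was 1.43 ± 0.37 (95% interval 0.57 to 2.29, unadjusted p = 0.00565, adjusted p = 0.192, limma). Over the alternatives the difference ranged from 1.02 to 1.70 and the adjusted p from 0.128 to 0.667. H1-6 was itself among the dimmest 30% of probe sets, so it has no value under the alternative that leaves them out. H1-1, a linker histone of the first stretch of the cluster, gave 6.31, 4.49 and 3.88 in wild type and 2.77, 4.22 and 4.55 in the knockout. Wild-type array 1 was high and knockout array 1 low, while the other 4 arrays overlapped. The difference was -1.04 ± 0.72 (adjusted p = 0.602, limma), and H1-1 was 1 of 2 histone genes with a value under 4.

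The main linker histones of dividing cells gave values close to equal. H1-4 gave 12.19, 12.45 and 12.40 in wild type and 12.40, 12.29 and 12.42 in the knockout, a difference of 0.02 ± 0.24 with a 95% interval of -0.54 to 0.58. H1-2 differed by 0.04 ± 0.31 (95% interval -0.69 to 0.76). The promoters of H1-6 and H1-4 are shown together because the gene with the largest difference and a gene with almost none carried the same H1 elements.
H1-6 (chr6:26108136-26108285, minus strand): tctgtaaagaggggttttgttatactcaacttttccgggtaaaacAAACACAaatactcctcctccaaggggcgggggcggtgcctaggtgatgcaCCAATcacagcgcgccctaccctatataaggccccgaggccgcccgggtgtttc
H1-4 (chr6:26156179-26156328, plus strand): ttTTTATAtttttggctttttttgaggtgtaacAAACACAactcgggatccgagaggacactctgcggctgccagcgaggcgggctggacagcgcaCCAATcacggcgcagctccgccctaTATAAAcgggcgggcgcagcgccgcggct

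AAACACA was found in 4 of 4 H1 promoters and in 4.96% of all promoters, and in none of the 33 other cluster promoters. In H1-1 the match was only on the reverse strand, at -183, where H1-6 and H1-4 held it forward at -105 and -117. CCAAT was also found in 4 of 4, at -54 in both genes shown. TATAAA was found in 2 of 4, with a match near the start in H1-4 and none in the window of H1-6.

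The H2A genes, which encode the core histone that pairs with H2B, spread to both sides, with 5 of 11 higher and 6 lower. No overlap was seen for 2 of the 11 (18.2%, against 19.7% of all probe sets). H2AC15 gave 9.61, 9.91 and 10.33 in wild type and 10.72, 10.63 and 10.37 in the knockout. All knockout arrays were above wild type, though knockout array 3 lay only just above wild-type array 3 (0.62 ± 0.29, 95% interval -0.06 to 1.30, adjusted p = 0.450, limma). H2AC21, an H2A gene of the chromosome 1 cluster, gave 12.22, 12.57 and 12.66 in wild type against 12.16, 11.97 and 12.06, without overlap in the lower direction (-0.42 ± 0.25, adjusted p = 0.551, limma). H2AC8 had the largest negative difference of the family, -0.59 ± 0.29 (adjusted p = 0.473, limma), with 5.72, 5.14 and 5.61 in wild type and 5.18, 4.71 and 4.81 in the knockout, where knockout array 1 lay just above wild-type array 2. H2AC12 overlapped at 0.51 ± 0.30, and the other 7 H2A genes lay between -0.21 and 0.11, each within its standard error.

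Of the 10 H2B genes, 4 were higher and 6 lower, from -0.43 to 0.43, and 0 were without overlap (against 19.7% of all probe sets). The largest differences were those of H2BC17, at -0.43 ± 0.44 (adjusted p = 0.729, limma), and H2BC21, at 0.43 ± 0.36 (adjusted p = 0.678, limma). H2BC17 gave 7.11, 8.0 and 7.82 in wild type and 7.82, 7.41 and 6.41 in the knockout, and H2BC21 gave 6.91, 6.36 and 7.00 in wild type and 6.71, 7.79 and 7.06 in the knockout. A single array of the knockout was far from the others in each: array 3 was low for H2BC17 and array 2 was high for H2BC21. Knockout array 3 held the lowest of the 6 values for 7 of the 10 H2B genes, and wild-type array 3 the highest for 5. The H2B medians against each gene's mean were -0.16, 0.01 and 0.31 in wild type and 0.16, 0.20 and -0.50 in the knockout, and the H2A medians were -0.21, -0.05 and 0.17 in wild type and 0.00, 0.13 and -0.22 in the knockout. In both families wild-type array 3 was the highest array and knockout array 3 the lowest, so the arrays of a genotype differed from each other by more than the genotypes did.

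Genes of H2A and H2B often lie head to head and share the DNA between their starts. Among the histone genes measured, 6 such pairs had starts under 1000 bases apart. In 3 pairs both genes had differences of the same sign and in 3 of opposite sign. The widest distance was between H2AC15 and H2BC15, whose starts lie 193 bases apart. H2AC15 stood at 0.62, and H2BC15 at -0.31 ± 0.30 (adjusted p = 0.713, limma), a distance of 0.94. H2BC15 gave 10.57, 11.10 and 11.07 in wild type and 10.95, 10.58 and 10.28 in the knockout, overlapping between genotypes, and it was named for its partner after its value had been seen. The pair is shown from both strands, so the windows overlap, beside H2BC14, a neighbour that holds an octamer.
H2AC15 (chr6:27838376-27838525, minus strand): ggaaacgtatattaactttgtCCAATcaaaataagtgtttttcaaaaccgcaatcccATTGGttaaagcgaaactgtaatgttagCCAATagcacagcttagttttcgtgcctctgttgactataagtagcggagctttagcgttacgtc
H2BC15 (chr6:27838419-27838568, plus strand): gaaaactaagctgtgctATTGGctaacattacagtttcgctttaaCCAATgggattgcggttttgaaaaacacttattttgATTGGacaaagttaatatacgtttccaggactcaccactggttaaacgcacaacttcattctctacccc
H2BC14 (chr6:27814872-27815021, plus strand): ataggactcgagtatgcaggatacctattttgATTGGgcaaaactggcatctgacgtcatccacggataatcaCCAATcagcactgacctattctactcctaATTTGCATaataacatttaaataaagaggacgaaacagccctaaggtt

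The octamer was found in 8 of 10 H2A promoters and in 7 of 10 H2B promoters, against 1.68% of all promoters, and in none of the H1, H3, H4 or variant promoters at hand. Head-to-head genes have overlapping windows, so the same octamer was counted for both genes in some pairs. These pairs were H2AC6 and H2BC4, H2AC8 and H2BC8, H2AC11 and H2BC11, and H2AC17 and H2BC17. Neither H2AC15 nor H2BC15 held the octamer within 250 bases of its start, where CCAAT was found on both sides. H2BC14, with the octamer at -48, differed by -0.22 ± 0.28. In the other pairs, H2BC8 and H2AC8 stood at -0.15 and -0.59, H2AC17 and H2BC17 at 0.02 and -0.43, and H2BC4 and H2AC6 at 0.05 and -0.21. H2BC11 and H2AC11, at -0.09 and -0.14, and H2AC25 and H2BC26, at 0.09 and 0.07, had nearly equal differences. All of these distances were within the sum of the standard errors of the pair except that of H2AC15 and H2BC15.

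Along chromosome 6 the 37 cluster genes fall into 3 stretches separated by over 500 kb. In the first stretch, of 24 genes, 8 were higher and 16 lower, with a median of -0.14. In the second, of 4 genes, 1 was higher and 3 lower, and in the third, of 9 genes, 6 were higher and 3 lower, with a median of 0.11. The makeup of the stretches differed: the first held 7 H4 genes, all 7 lower with a median of -0.47, and the third held none of those measured. In the third, the 3 H2A and 3 H3 genes were all higher and the 3 H2B genes all lower, with medians of 0.11, 0.37 and -0.31. Neighbours could have opposite signs, as H3C1 and H4C1 did at 0.49 and -0.53, or the same sign, as in the run of H4C4, H2BC7, H4C5, H2BC8 and H2AC8, all lower.

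**Figure D3:**
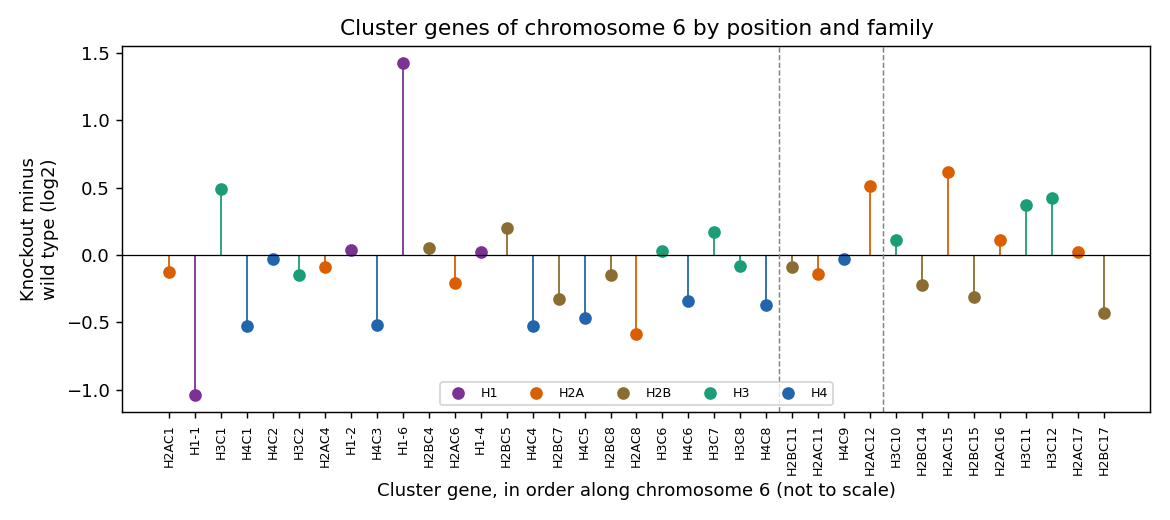
Difference between knockout and wild type (vertical axis, log2) for the 37 cluster genes of chromosome 6 in their order along the chromosome (horizontal axis, not to scale), coloured by family, with dashed lines between the 3 stretches. Points of opposite sign sit side by side in places, such as H3C1 at 0.49 and H4C1 at -0.53, and H2AC15 at 0.62 and H2BC15 at -0.31.

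The 7 variant genes lay between -0.29 and 0.35, with 5 higher and 2 lower, a median of 0.19 and a lowest adjusted p of 0.629 in limma. Those without overlap were H2AZ1, which was higher in the knockout, and H2AX, which was lower (28.6%, against 19.7% of all probe sets). H2AX, the H2A variant that is phosphorylated around DNA double-strand breaks, gave 9.95, 9.94 and 10.19 in wild type and 9.67, 9.68 and 9.85 in the knockout. All knockout arrays were lower, by a small amount (-0.29 ± 0.24, 95% interval -0.86 to 0.28, adjusted p = 0.670, limma). H2AZ1, which encodes the H2A.Z variant found at promoters, gave 10.78, 10.73 and 11.06 in wild type and 11.12, 11.42 and 11.07 in the knockout, the lowest knockout array being just above the highest wild-type array (0.35 ± 0.25, 95% interval -0.25 to 0.95, adjusted p = 0.629, limma).

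The promoters of H2AX and H2AZ1 are shown because these variant genes had differences of opposite sign with motifs in common. Both held CCAAT or its reverse, and a TATA box near the start. Of the cluster promoters at hand, 32 of 37 held CCAAT and 24 of 37 held TATAAA, each on either strand. In some of them the TATAAA match was only further from the start.
H2AX (chr11:119095466-119095615, minus strand): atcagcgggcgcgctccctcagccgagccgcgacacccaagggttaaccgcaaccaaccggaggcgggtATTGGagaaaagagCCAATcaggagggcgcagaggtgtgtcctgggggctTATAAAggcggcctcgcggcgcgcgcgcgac
H2AZ1 (chr4:99950276-99950425, minus strand): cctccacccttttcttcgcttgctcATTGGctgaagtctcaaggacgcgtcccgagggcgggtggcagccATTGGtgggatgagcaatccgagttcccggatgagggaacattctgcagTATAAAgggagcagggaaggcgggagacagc

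Among 7 variant promoters, CCAAT was found in 4, TATAAA in 3, GGTCCG in 2 and the octamer in 0. The other variant genes overlapped between genotypes and were each within their standard error. H2AZ2, a second H2A.Z gene, gave 9.70, 10.11 and 10.02 in wild type and 9.87, 10.14 and 10.41 in the knockout (0.19 ± 0.27). MACROH2A1 and MACROH2A2, whose products carry a large macro domain, differed by 0.21 ± 0.41 and 0.28 ± 0.30. MACROH2A1 gave 9.53, 8.53 and 9.28 in wild type and 8.89, 9.99 and 9.09 in the knockout, and MACROH2A2 gave 8.74, 8.09 and 8.60 in wild type and 8.96, 8.84 and 8.46 in the knockout. For both genes, the range of the arrays within each genotype was wider than the distance between the genotype means. H1-10, the replication-independent linker histone H1x, gave 9.80, 8.93 and 9.41 in wild type and 9.37, 10.08 and 9.04 in the knockout (0.12 ± 0.38). H2AJ gave 7.11, 7.32 and 6.09 in wild type and 6.46, 6.92 and 6.38 in the knockout (-0.25 ± 0.39). The signs of H1-10 and MACROH2A1 turned under 3 alternatives each and that of H2AJ under 1.

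**Figure D4:**
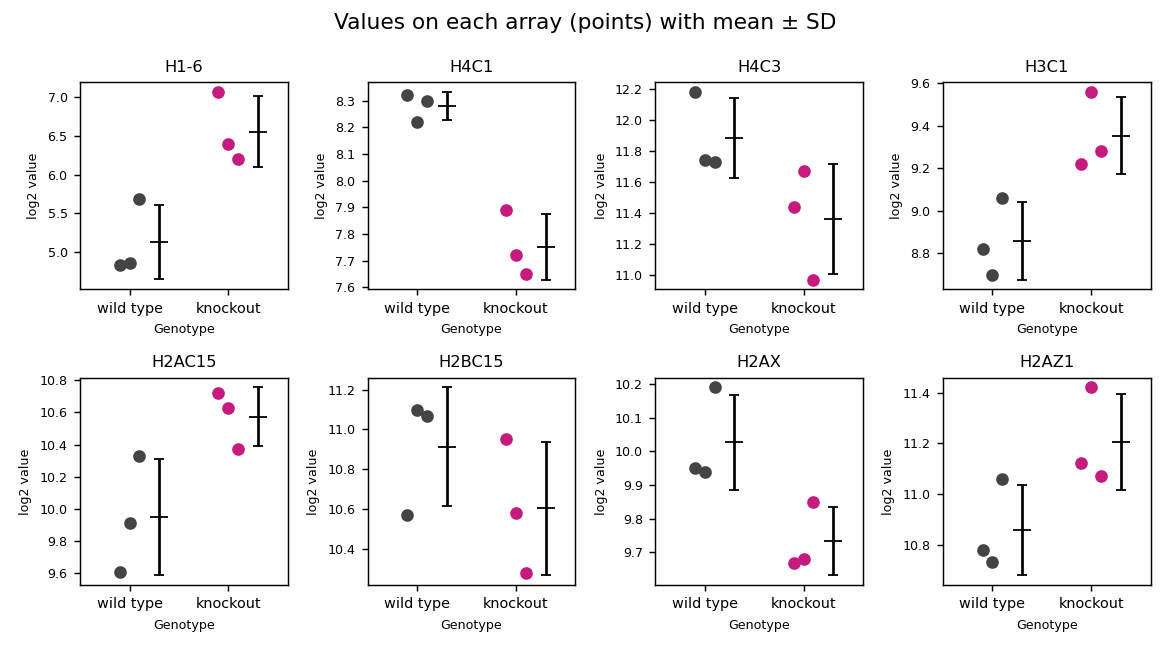
Log2 value on each array (points, vertical axis with its own range in each panel, not starting at 0) by genotype (horizontal axis) for 8 histone genes, with the mean ± SD of 3 arrays beside the points. The genotypes do not overlap in 7 of the panels and overlap for H2BC15, and none of the 8 differences passed the adjusted threshold.

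Cluster genes were then set against variant genes. The variant class held H2A variants and the linker gene H1-10 only, so the classes also differed in their makeup by family. The cluster median was -0.06, with 19 of 42 higher and 23 lower, and the variant median was 0.19, a gap of -0.25. The size of the gap depended on which arrays were kept. Without knockout array 2 the variant median was -0.12 and the gap -0.01. The variant median was also -0.01 without wild-type array 2, with a gap of -0.11. The cluster median turned to 0.01 without knockout array 3 and to 0.06 without wild-type array 3. Without both arrays of highest median, the cluster median was -0.17, the variant median 0.07 and the gap -0.24.

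The classes were also read array by array. Against each probe set's own mean, the medians of all probe sets were 0.13, -0.09 and -0.03 in wild type and -0.11, 0.19 and -0.05 in the knockout. The variant medians were 0.13, -0.30 and -0.02, and -0.17, 0.23 and -0.13. The cluster medians were -0.08, -0.05 and 0.20, and 0.04, 0.13 and -0.24. The variant medians had the sign of all probe sets on 6 of 6 arrays and the cluster medians on 3 of 6. The cluster median minus the variant median was -0.21, 0.25 and 0.22 in wild type and 0.21, -0.10 and -0.11 in the knockout, with both signs in each genotype. These array values overlapped between the genotypes, and their pooled SD within a genotype was 0.22. They are another measure than the gap of -0.25, which is taken between medians of the genotype differences.

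**Figure D5:**
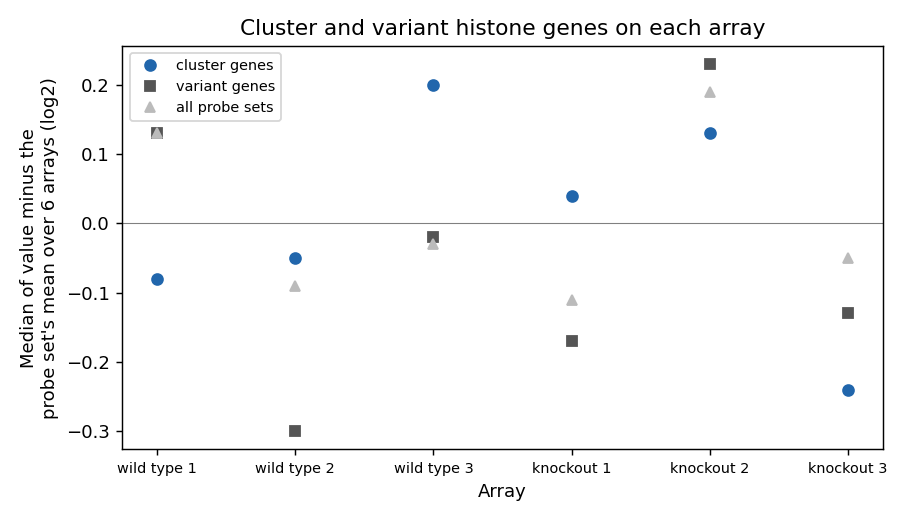
Median over cluster genes, variant genes and all probe sets of the value minus the probe set's mean over 6 arrays (vertical axis, log2) on each array (horizontal axis). The variant genes lie near all probe sets on knockout array 2 and on wild-type array 1, which had the highest overall medians, and the cluster genes are highest on wild-type array 3 (0.20) and lowest on knockout array 3 (-0.24).

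Genes that make, process and deliver histones were read from lists taken from textbook knowledge. No member of any list was called in limma, where 0.570% of all probe sets were called. Of all probe sets, 48.7% were lower in the knockout. The list for the 3′ end processing and decay of histone mRNA had 13 of 14 members measured, 5 higher and 8 lower, with a median of -0.13. Of these, 1 had an unadjusted p under 0.05 in limma, against 12.2% of all probe sets. LSM11, a subunit of the U7 snRNP, gave 6.56, 6.38 and 6.63 in wild type and 5.30, 6.27 and 5.59 in the knockout, without overlap (-0.80 ± 0.32, adjusted p = 0.378, limma). SLBP, the stem-loop binding protein, stood at -0.51 ± 0.47 with overlapping arrays (adjusted p = 0.704, limma).

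The list for transcription at histone loci and entry into S phase had 11 of 14 members measured, 6 higher and 5 lower, with a median of 0.04. At an unadjusted p under 0.05 in limma there were 0, against 12.2% of all probe sets. CDK2, whose kinase with cyclin E activates histone transcription, had the largest difference, -0.55 ± 0.34 (adjusted p = 0.564, limma). HINFP, the factor of the H4 element, differed by 0.04 ± 0.27 with 9.77, 10.18 and 9.89 in wild type and 9.71, 10.09 and 10.18 in the knockout. SLBP and HINFP were named after their values had been seen.

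Of the histone chaperones, 18 of 24 were measured, 6 higher and 12 lower, with a median of -0.26. TONSL, which reads newly deposited H4 at replicated DNA, had the largest difference. It was the 1 of 18 with an unadjusted p under 0.05 in limma, against 12.2% of all probe sets. It gave 8.72, 9.06 and 8.84 in wild type and 9.50, 9.54 and 9.36 in the knockout, without overlap (0.60 ± 0.24, adjusted p = 0.390, limma).

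The S-phase replication genes, which are transcribed in the same part of the cell cycle as the histone clusters, had 20 of 25 members measured. Of the 20, 3 were higher and 17 lower (85.0% lower, against 48.7% of all probe sets), with a median of -0.33. No overlap was seen for 4 of 20 (20.0%, against 19.7% of all probe sets). At an unadjusted p under 0.05 in limma there were 1 higher and 1 lower, against 12.2% of all probe sets. The median of this list was not followed when arrays were left out. LIG1, the ligase that joins Okazaki fragments, had the largest difference, -0.93 ± 0.29 (adjusted p = 0.255, limma), with 8.98, 9.03 and 9.03 in wild type and 8.21, 8.39 and 7.63 in the knockout. CDC6, a loader of the replicative helicase that was named after its value had been seen, went the other way at 0.88 ± 0.24 (adjusted p = 0.223, limma). Both had no overlap and an unadjusted p under 0.05. Beside this median, that of the H4 genes was -0.37, and the other histone families had medians from -0.12 to 0.14. Whether the lines differed in their share of cells in S phase was not tested, and less RNA per cell cannot be told apart from fewer cells in that phase.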

How the data were processed

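The deposited probe set values are on the log2 scale, as read from their range. RMA, the build hg18 and R 2.11.1 are listed per the submitters' processing notes, and the RMA steps run are not stated in the sources used. Array medians differ, so the deposited log2 values are not quantile normalized across arrays. Values were used without a filter.

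Genotypes were compared with limma 3.58.1 (lmFit, eBayes, R 4.3.3) over 19458 probe sets, with genotype as the single factor and Benjamini-Hochberg adjustment over all of them. An adjusted p under 0.05 was a call. Means and SDs are over the 3 arrays of a genotype, whose small number limits the precision. The code was checked on generated data with known changes.

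Symbols came from the platform annotation, in which 13301 probe sets had 1 symbol, 2044 several and 4113 none. They were updated through RefSeq gene identifiers. Promoters and gene order are those of RefSeq on GRCh38.p14, and 44 of the 49 genes matched a promoter. The genes named were all variant genes, cluster genes with an unadjusted p under 0.05 or no overlap between genotypes, the extremes of each family, and the member of largest difference in each list. Others are marked in the text or belong to a family, pair or stretch described. The members, lists and rules were chosen with earlier results of these data known.

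Alternatives were scaling (quantile normalization or centring on array medians), a floor of 4, omission of the dimmest 30% of probe sets, variance models (trend, robust, and the single-factor test without moderation that the series design names), array weights, a replicate block, omission of each array, of the pair of arrays with the highest medians, and of testis-restricted cluster genes. Family medians, counts without overlap and leaving out the macroH2A genes were added later, with the values in view.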

Additional observations from a re-analysis of the deposited data

How the results depend on the processing

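No histone gene was called by limma under any of the 16 alternative fits. The number with an unadjusted p under 0.05 was 1 as reported, 7 with array weights (25.0% of all probe sets), 6 without moderation (13.0%), 4 with a variance trend (13.0%), 2 of 39 without the dimmest probe sets (14.5%; H1-6 is left out there), 2 with a floor of 4 (13.1%), and 1 to 2 when each array was left out (8.13% to 16.0%). Calls over all probe sets numbered 111, and 778 with array weights, 396 with a variance trend, 184 without the dimmest, 175 with median centring, 174 with quantile normalization, 169 with the floor, 7 without both arrays of highest median and 24 to 63 when each array was left out. Leaving out arrays leaves fewer samples in the fit. Otherwise the cause was not tested. Histone genes without overlap numbered 11, 21 without both arrays of highest median (47.3% of all probe sets), and 13 to 17 when each array was left out (24.0% to 39.4%). The count was 8 with quantile normalization (20.9%), 10 with median centring (20.6%) and 10 of 39 without the dimmest (22.0%). Under quantile normalization the variant median was 0.10 and the gap -0.16. Without the dimmest, the H3 median went from 0.14 to 0.37. When each array was left out, the variant median ranged from -0.12 to 0.33, the gap from -0.38 to -0.01, the cluster median from -0.14 to 0.06, the H3 median from 0.08 to 0.24 and the H4 median from -0.49 to -0.29. Among 23 named histone genes under these alternatives, 11 of 364 differences changed sign, none of them at an unadjusted p under 0.05 on either side.

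With the replicate number as a block, 3 probe sets of all were called, 0 histone genes were called and 1 had an unadjusted p under 0.05. Arrays that share a number had correlations of deviations of -0.238, -0.427 and 0.0582, so the numbers were not taken to pair the arrays. Keeping 1 probe set per gene changed nothing, since no histone gene had several that carried its symbol alone. H2AZ2 was also named, together with FAM174B, by a probe set left out of the counts. That probe set stood at -0.13 ± 0.36 (adjusted p = 0.910, limma), opposite in sign to the 0.19 given for H2AZ2.

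With 3 arrays per genotype, a median standard error of 0.30 among the histone genes limits what can be seen, and 10 of the 49 are among the dimmest 30% of probe sets.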

Other observations

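Linker histone genes outside the gene rule were also measured. H1-7, a testis linker histone, gave 7.02, 6.89 and 8.01 in wild type and 7.95, 7.81 and 7.67 in the knockout (0.50 ± 0.36, adjusted p = 0.616, limma). H1-8, the oocyte linker histone, gave 6.78, 7.45 and 6.60 in wild type and 7.05, 6.92 and 7.73 in the knockout (0.29 ± 0.35, adjusted p = 0.777, limma). Both overlapped between genotypes. The 5 probe sets that name a histone with another gene differed by -0.38 to 0.25, and the lowest adjusted p among them was 0.743 in limma.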
